A study of Mus musculus with 11 samples.

Results

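Selenoproteins contain selenocysteine, an amino acid that is inserted at an in-frame UGA codon, which elsewhere ends translation. A stem-loop in the 3' untranslated region of the mRNA, the SECIS element, recruits the binding protein SECISBP2 and the elongation factor EEFSEC, which delivers the selenocysteine tRNA to the ribosome. Decoding of this UGA is slow and competes with termination, and the liver makes most of the selenium carrier Selenop found in plasma. The genes described here are 10 selenoproteins, chosen by their Ensembl gene identifiers, of 22019 genes in the table of coding-sequence counts. They are Selenok (ENSMUSG00000042682), Selenop (ENSMUSG00000064373), Gpx1 (ENSMUSG00000063856), Gpx4 (ENSMUSG00000075706), Txnrd1 (ENSMUSG00000020250), Selenof (ENSMUSG00000037072), Selenos (ENSMUSG00000075701), Selenow (ENSMUSG00000041571), Dio1 (ENSMUSG00000034785) and Selenot (ENSMUSG00000075700). All 10 had counts in every library.

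The libraries came from livers of male wild-type (WT) mice on a High-Fat-High-Sugar (HFHS) diet or on a control diet (chow), with no other treatment in the labels. The labels give no age, strain or time on the diet. Ribosome footprints, the mRNA stretches that ribosomes protect from RNase I, were cut from a gel at about 60 nt for disomes (ribosomes stacked in pairs) and at about 30 nt for monosomes (single ribosomes). There were 2 HFHS disome, 3 chow disome, 3 HFHS monosome and 3 chow monosome libraries. They are named here by their barcodes, since the columns carry no replicate number. HFHS disome replicate 2 was not analysed here.

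Depth ran from 235748 to 238837 counts in HFHS disome libraries, 147212 to 279331 in chow disome libraries, 1196240 to 1612324 in HFHS monosome libraries and 795145 to 1248781 in chow monosome libraries. Both chow libraries of barcode AGCTA stood apart. Over 2160 genes, its monosome library reached r = 0.82 and 0.83 with the remaining chow monosome libraries, which reached 0.98 with each other, and its disome library r = 0.80 and 0.80, where the remaining pair reached 0.96. Results that rest on these libraries were therefore repeated without them. The identifiers could not be paired with gene names in the reference used here, so liver and other cell type markers, the remaining selenoproteins and the selenocysteine insertion factors were not analysed. Nothing in the labels says that samples of a group came from separate animals, and the p-values therefore reflect sample-to-sample spread that may be technical. In whole liver, fewer cells of a type and less RNA per cell cannot be told apart, and no library measures mRNA, so a footprint level combines mRNA level and ribosomes per mRNA.

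The first comparison set disome against monosome footprints within each diet and asked which selenoprotein mRNAs carried more or fewer stacked ribosomes than their monosome level. Selenok stood alone in this family: it carried 6.71 times more disome than monosome footprints in HFHS livers and 8.13 times more in chow livers, relative to the average gene. Most other members lay on the opposite side, with fewer disomes than monosomes. In HFHS livers 1 of the 10 was higher in disomes (Selenok) and 7 were lower (Selenop, Gpx1, Gpx4, Txnrd1, Selenof, Dio1 and Selenot). Of 7437 genes tested in HFHS, 25.1% were called, 11.5% higher and 13.6% lower. In chow livers 1 of the 10 was higher (Selenok) and 6 were lower (Selenop, Gpx1, Selenof, Selenow, Dio1 and Selenot), where 44.9% of 4713 tested genes were called, 21.6% higher and 23.3% lower. Selenow needed its monosome libraries to pass the count filter in both diets. Its place among these 6 and its ratio in each diet are therefore partly set by the filter. The median log2 ratio of the 10 members was -0.88 in HFHS and -0.79 in chow, where the median of all genes tested was -0.07 in HFHS and -0.01 in chow. A call is an edgeR quasi-likelihood adjusted p below 0.05, adjusted over all genes tested. Ratios in each diet are relative to the average gene of that fit, so a shift of disomes shared by the whole table is invisible.

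**Figure D1:**
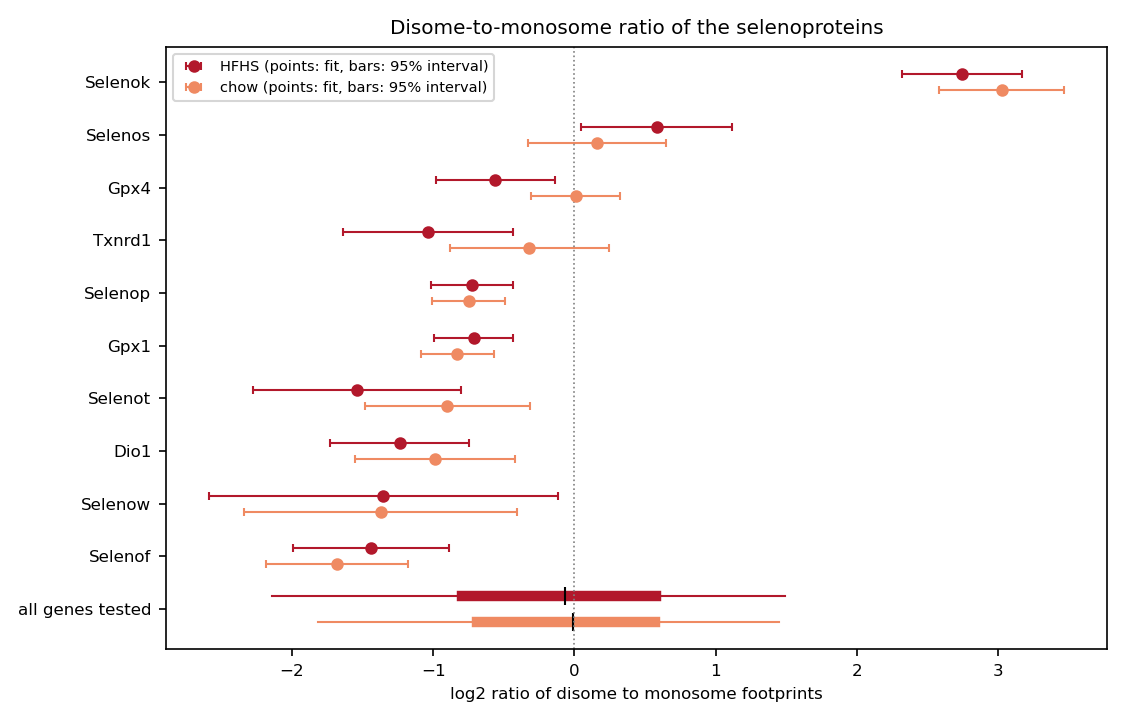
Log2 ratio of disome to monosome footprints (x axis) for each selenoprotein (rows), with HFHS above chow in each row. Points are edgeR estimates and bars 95% intervals, and the lowest row gives all genes tested (tick at the median, thick bar from the 25th to the 75th percentile, thin line from the 5th to the 95th percentile). Selenok lies at 2.75 in HFHS and 3.02 in chow, while the other 9 members lie between -1.68 and 0.58.

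Selenok is a small membrane protein of the endoplasmic reticulum (ER) with a role in ER-associated degradation and protein palmitoylation, and its selenocysteine lies close to the C terminus. It had 266.6 (CTAGA) and 274.2 (GCATA) CPM (counts scaled to a common library size) in HFHS disomes, against 44.5 (CTAGA), 43.1 (GATCA) and 44.6 (GCATA) CPM in HFHS monosomes. In chow it had 301.7 (AGCTA), 317 (ATCGT) and 322.8 (CGTAA) CPM in disomes, against 45.3 (AGCTA), 25.8 (ATCGT) and 61 (CGTAA) CPM in monosomes. Every disome library lay above every monosome library, by a wide margin, in both diets. The log2 ratio was 2.75 ± 0.21 (SE) in HFHS (edgeR adjusted p = 3.72e-11) and 3.02 ± 0.22 in chow (edgeR adjusted p = 2.56e-13). The 95% intervals ran from 2.32 to 3.17 in HFHS and from 2.58 to 3.47 in chow. The monosome library ATCGT holds the lowest of the 3 chow monosome levels, and without it the chow ratio was 2.67. Without both libraries of barcode AGCTA it was 3.01.

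The excess was visible before any scaling. Raw Selenok counts were 67 (CTAGA) and 70 (GCATA) in HFHS disomes, against 56 (CTAGA), 46 (GATCA) and 64 (GCATA) in HFHS monosomes. In chow disomes it had 51 (AGCTA), 83 (ATCGT) and 106 (CGTAA) counts, against 34 (AGCTA), 30 (ATCGT) and 60 (CGTAA) in chow monosomes. In all 5 barcodes present in both classes, Selenok thus had more disome than monosome counts, although the whole monosome library was 3.67 to 6.75 times larger than the disome library of its barcode. The other 9 members had 2.94 to 33 times more monosome than disome counts within a barcode.

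Selenok also ranked near the top of the whole table. In HFHS 36 of 7437 genes had a higher ratio and in chow 9 of 4713. Genes with few monosome counts can reach very high ratios, so the rank was also taken among genes with at least as many monosome counts as Selenok. That cutoff was chosen after its values were seen. It removes every gene with fewer monosome counts than Selenok, so it favours a high rank for Selenok. Of 2465 such genes in HFHS 1 had a higher ratio, and of 2547 such genes in chow 0 had one. Selenok made up 6.91% ± 0.18 (SD, n = 2) of the family's counts in HFHS disomes and 9.20% ± 0.081 (n = 3) in chow disomes, against 0.662% ± 0.062 in HFHS monosomes and 0.740% ± 0.27 in chow monosomes (n = 3 each). The plot of disome against monosome level shows it far above the line of equal levels in both diets.

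**Figure D2:**
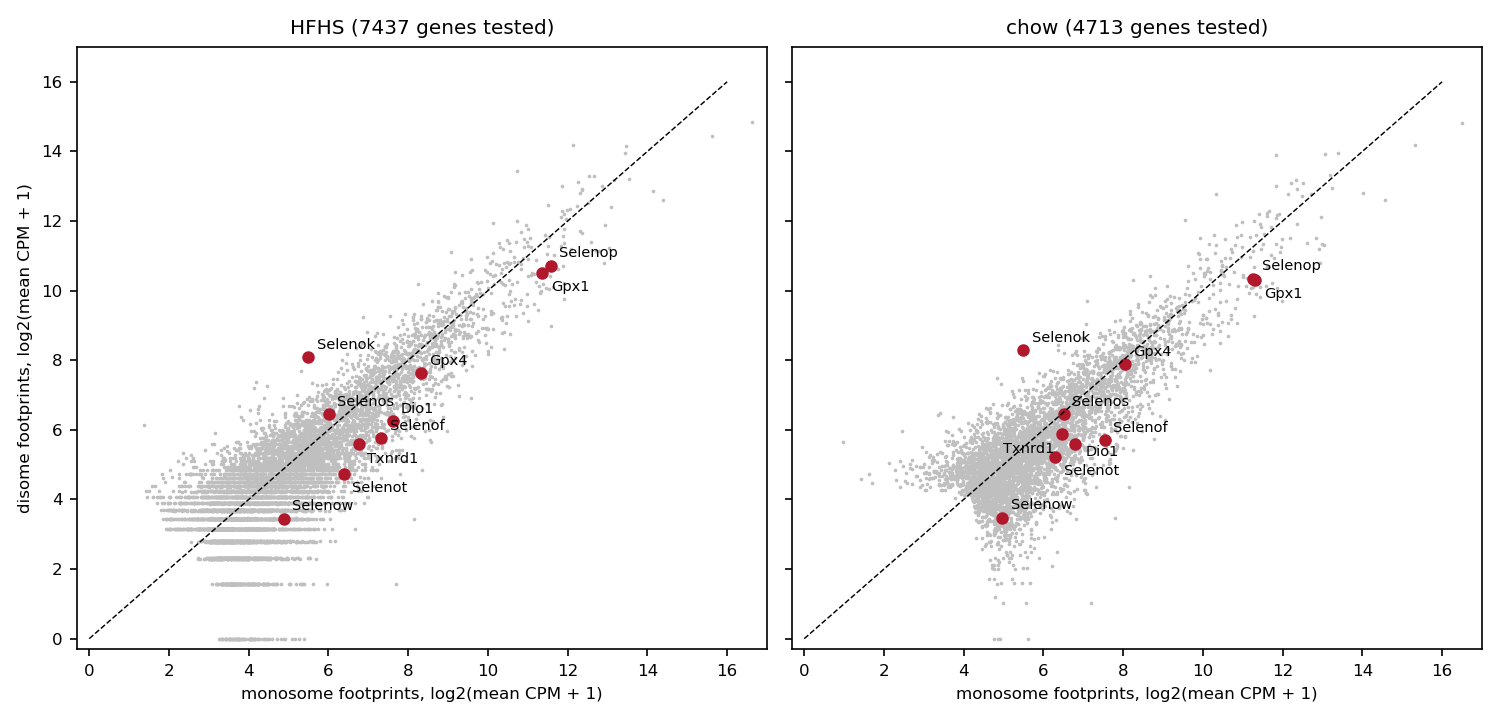
Mean disome level against mean monosome level, each as log2(CPM + 1), for all genes tested in HFHS (left, 7437 genes) and chow (right, 4713 genes). Selenoproteins are red and labelled, other genes grey, and the dashed line marks equal levels: Selenok lies far above the line in both panels, Selenos lies slightly above it in HFHS and just below it in chow, and the other 8 members lie below it.

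By symbols made of the gene's symbol and the ending -ps, the RefSeq gene table lists 8 Selenok pseudogenes, 2 of Gpx4 and 1 of Selenot. It lists none so named for the other 7 members, and pseudogenes under other names were not searched. How reads shared between such copies were counted is not given, and the part of this in the Selenok ratio was not tested. Gpx4 had a log2 ratio of -0.56 in HFHS and 0.0092 in chow, and Selenot -1.54 in HFHS and -0.90 in chow. The table gives 1 count per gene, so the place of the disomes along an mRNA cannot be seen. Whether the counted coding sequence ran past the UGA is likewise not given.

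The other 3 ER proteins of the family did not share the high ratio. Selenos, a membrane protein of the ER-associated degradation machinery whose selenocysteine is also close to the C terminus, had 91.5 (CTAGA) and 82.2 (GCATA) CPM in HFHS disomes, against 62 (CTAGA), 59.1 (GATCA) and 69 (GCATA) CPM in HFHS monosomes. In chow it had 76.9 (AGCTA), 76.4 (ATCGT) and 106.6 (CGTAA) CPM in disomes, against 96 (AGCTA), 68.7 (ATCGT) and 104.8 (CGTAA) CPM in monosomes. The HFHS groups did not overlap, while the chow groups did. Its log2 ratio was 0.58 ± 0.26 in HFHS (edgeR adjusted p = 0.103) and 0.16 ± 0.24 in chow (edgeR adjusted p = 0.614), so neither passed. Scaled by library totals alone, Selenos passed in HFHS with a log2 ratio of 0.70 (edgeR adjusted p = 0.0483), a scaling that moved the median of all genes by 0.12.

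Selenof, which binds the glycoprotein folding sensor UGGT in the ER, had the lowest ratio of the family in chow. It had 43.8 (CTAGA) and 62.7 (GCATA) CPM in HFHS disomes, against 149.5 (CTAGA), 175.3 (GATCA) and 153.3 (GCATA) CPM in HFHS monosomes. In chow it had 53.2 (AGCTA), 42 (ATCGT) and 57.9 (CGTAA) CPM in disomes, against 199.97 (AGCTA), 144.3 (ATCGT) and 213.6 (CGTAA) CPM in monosomes. No disome library reached the monosome range. Its disome footprints were 2.71 times lower in HFHS (log2 ratio -1.44 ± 0.27, edgeR adjusted p = 0.000186) and 3.21 times lower in chow (-1.68 ± 0.25, edgeR adjusted p = 7e-07).

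Selenot, a thioredoxin-like protein of the ER membrane, had 35.8 (CTAGA) and 15.7 (GCATA) CPM in HFHS disomes, against 76.7 to 87.2 CPM in the 3 HFHS monosome libraries. It had 34.4 to 39.6 CPM in the 3 chow disome libraries, against 67.9 to 82.7 CPM in the 3 chow monosome libraries. The groups did not overlap in either diet, and the disome libraries held 4 to 13 counts each. The log2 ratio was -1.54 ± 0.36 in HFHS (edgeR adjusted p = 0.00195) and -0.90 ± 0.29 in chow (edgeR adjusted p = 0.0104). Without the HFHS disome library GCATA the HFHS ratio was -1.10 and missed the threshold (edgeR adjusted p = 0.0831), and without CTAGA it was -2.24.

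Gpx1, the cytosolic glutathione peroxidase that reduces hydrogen peroxide, and Selenop, the secreted selenium carrier with several selenocysteines, held most of the family's footprints. Together they took 80.4% ± 1.7 of its counts in HFHS disomes (SD, n = 2) and 75.5% ± 1.8 in chow disomes, against 85.1% ± 0.24 in HFHS monosomes and 84.9% ± 0.60 in chow monosomes (n = 3 each). These values are shares of counts, not levels per length of mRNA.

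Gpx1 had 1607 (CTAGA) and 1328 (GCATA) CPM in HFHS disomes, against 2540.0 (CTAGA), 2991 (GATCA) and 2383 (GCATA) CPM in HFHS monosomes. It had 1195 (AGCTA), 1386 (ATCGT) and 1242 (CGTAA) CPM in chow disomes, against 2317 (AGCTA), 2428 (ATCGT) and 2890.4 (CGTAA) CPM in chow monosomes. The disome libraries all lay below the monosome libraries. Gpx1 had a log2 ratio of -0.71 ± 0.14 in HFHS (edgeR adjusted p = 0.000254) and -0.83 ± 0.13 in chow (edgeR adjusted p = 1.59e-06).

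Selenop showed a ratio of nearly the same size. It had 1393 (CTAGA) and 1970 (GCATA) CPM in HFHS disomes, against 2927 to 3170 CPM in HFHS monosomes, and 1215 to 1349 CPM in chow disomes, against 2387 to 2525 CPM in chow monosomes. The groups did not overlap in either diet. For Selenop the log2 ratio was -0.73 ± 0.14 in HFHS (edgeR adjusted p = 0.000323) and -0.75 ± 0.13 in chow (edgeR adjusted p = 7.89e-06). The disome libraries of HFHS differed for this gene, and the HFHS ratio was -1.05 without GCATA and -0.50 without CTAGA, past the threshold both times.

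Gpx4, the peroxidase that reduces lipid hydroperoxides in membranes, lay close to the average gene in chow. It had 210.9 (CTAGA) and 180.2 (GCATA) CPM in HFHS disomes, against 318 (CTAGA), 384.4 (GATCA) and 248.1 (GCATA) CPM in HFHS monosomes. It had 207 (AGCTA), 263.5 (ATCGT) and 234.5 (CGTAA) CPM in chow disomes, against 254.6 (AGCTA), 291.3 (ATCGT) and 245.1 (CGTAA) CPM in chow monosomes. The groups were apart in HFHS and overlapped in chow. The log2 ratio was -0.56 ± 0.21 in HFHS (edgeR adjusted p = 0.0446) and 0.0092 ± 0.16 in chow (edgeR adjusted p = 0.968). The HFHS call passed narrowly and was lost in 8 of 13 alternatives, among them DESeq2 (adjusted p = 0.123) and the removal of either HFHS disome library (edgeR adjusted p = 0.118 without CTAGA and 0.236 without GCATA).

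Txnrd1, the cytosolic thioredoxin reductase, carries its selenocysteine close to the C terminus, as do Selenok and Selenos. It had 43.8 (CTAGA) and 50.9 (GCATA) CPM in HFHS disomes, against 103.4 (CTAGA), 122.8 (GATCA) and 95.5 (GCATA) CPM in HFHS monosomes. In chow it had 17.7 (AGCTA), 95.5 (ATCGT) and 60.9 (CGTAA) CPM in disomes, against 79.99 (AGCTA), 97.9 (ATCGT) and 82.4 (CGTAA) CPM in monosomes. The chow disome libraries spread widely, from 3 counts in AGCTA to 25 in ATCGT, and overlapped the monosome libraries. The log2 ratio was -1.04 ± 0.29 in HFHS (edgeR adjusted p = 0.00967) and -0.32 ± 0.28 in chow (edgeR adjusted p = 0.367). Without the chow disome library ATCGT the chow ratio was -0.82 and passed (edgeR adjusted p = 0.0382). Without both AGCTA libraries it was -0.14. The HFHS call was lost without the disome library CTAGA (log2 ratio -0.93, edgeR adjusted p = 0.111).

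Dio1, the deiodinase that activates thyroid hormone in liver, had 79.6 (CTAGA) and 70.5 (GCATA) CPM in HFHS disomes, against 181.3 (CTAGA), 188.4 (GATCA) and 212.6 (GCATA) CPM in HFHS monosomes. It had 41.4 (AGCTA), 30.6 (ATCGT) and 70 (CGTAA) CPM in chow disomes, against 101.3 (AGCTA), 91.9 (ATCGT) and 138.3 (CGTAA) CPM in chow monosomes. Disome libraries lay below monosome libraries throughout. Dio1 had a log2 ratio of -1.24 ± 0.24 in HFHS (edgeR adjusted p = 0.00027) and -0.99 ± 0.28 in chow (edgeR adjusted p = 0.00399).

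Selenow, a small cytosolic redox protein, rested on the fewest counts. It had 4 (CTAGA) and 1 (GCATA) counts in HFHS disomes, against 31 to 40 in the HFHS monosome libraries, and 1 (AGCTA), 4 (ATCGT) and 3 (CGTAA) counts in chow disomes, against 17 to 39 in the chow monosome libraries. Disome CPM lay below monosome CPM in every library, and the size of the log2 ratio is uncertain. In both diets Selenow passed the count filter only with its monosome libraries, where it is higher, and such a filter favours a lower ratio. The ratio was -1.35 ± 0.61 in HFHS (edgeR adjusted p = 0.102) and -1.37 ± 0.48 in chow (edgeR adjusted p = 0.018). The chow call was lost without the disome library AGCTA (edgeR adjusted p = 0.0513), without CGTAA (edgeR adjusted p = 0.1) and with DESeq2 (adjusted p = 0.0837). The HFHS ratio was -2.66 without CTAGA and -0.71 without GCATA.

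**Figure D3:**
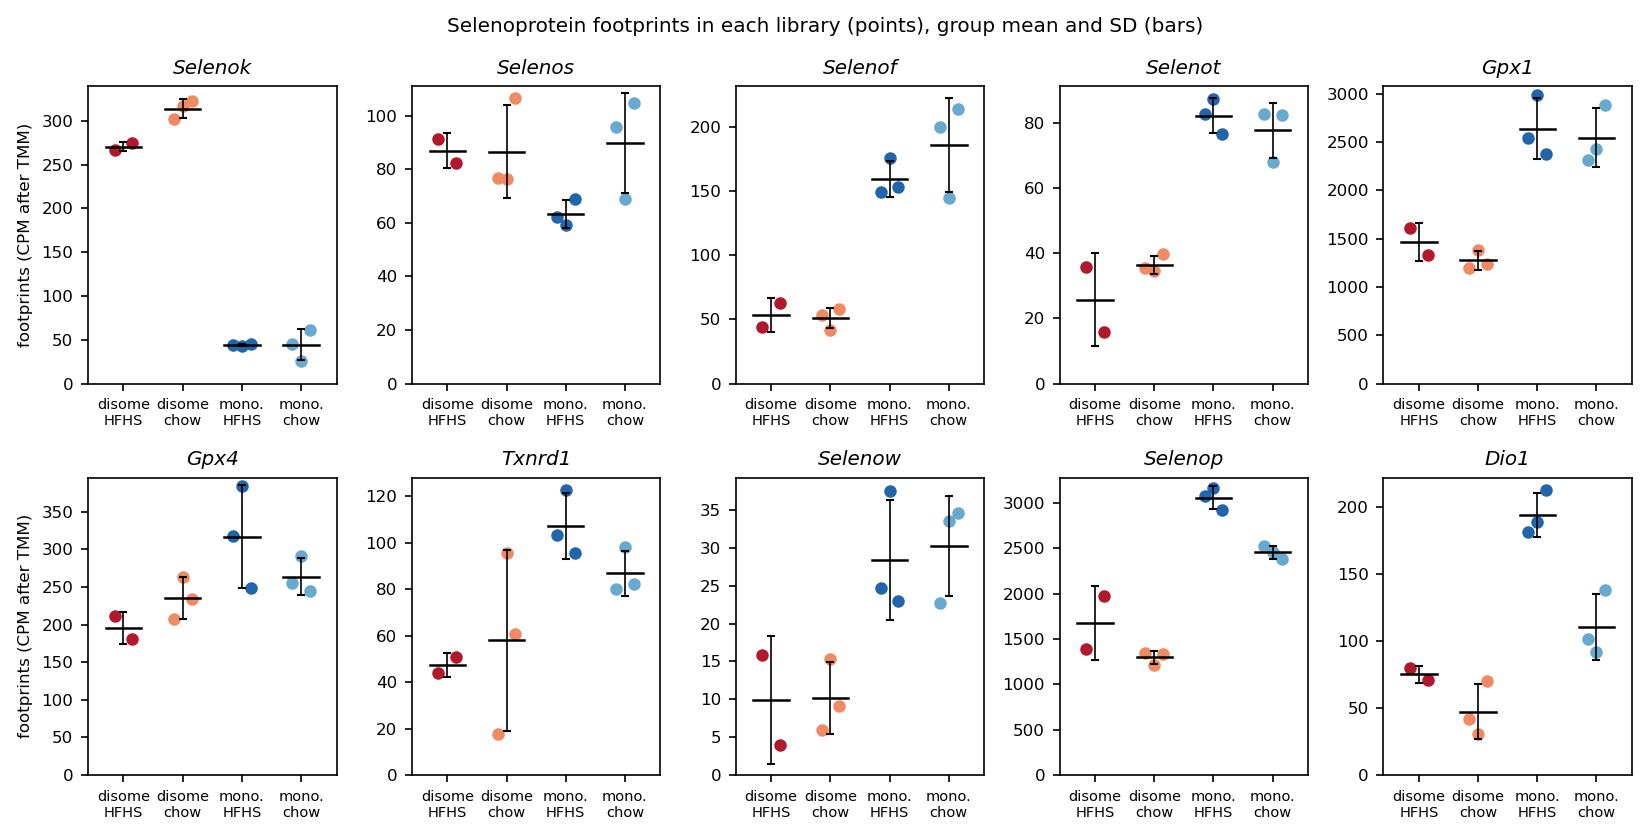
Footprint level of each selenoprotein in CPM after TMM scaling over all 11 libraries (y axis, from 0) by group (x axis: HFHS disomes, chow disomes, HFHS monosomes, chow monosomes). Points are libraries, horizontal bars group means and error bars the SD. Selenok is the member whose disome points lie far above its monosome points, and Dio1 monosomes lie between 181.3 and 212.6 CPM in HFHS, above the 3 chow libraries.

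The members were then grouped by the place of the selenocysteine, as general knowledge gives it, since no protein sequence was read here. The 3 members with a selenocysteine close to the C terminus (Selenok, Selenos and Txnrd1) had log2 ratios from -1.04 to 2.75 in HFHS, with a median of 0.58, and from -0.32 to 3.02 in chow, with a median of 0.16. The 7 members whose first selenocysteine lies earlier had ratios from -1.54 to -0.56 in HFHS, with a median of -1.24, and from -1.68 to 0.0092 in chow, with a median of -0.90. In HFHS the groups overlapped, since Txnrd1 lay within the range of the second group. In chow Txnrd1 lay below Gpx4. No test was made, because the members are few and their ratios were known.

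The second comparison set HFHS against chow livers. In monosomes 1 of the 10 members rose with the HFHS diet, Dio1, and 0 fell, where 4.65% of 6754 genes tested were called, 3.02% higher and 1.63% lower. Dio1 had 181.3 (CTAGA), 188.4 (GATCA) and 212.6 (GCATA) CPM in HFHS monosomes, against 101.3 (AGCTA), 91.9 (ATCGT) and 138.3 (CGTAA) CPM in chow monosomes. The lowest HFHS library lay above the highest chow library. The log2 fold change was 0.78 ± 0.15, a 1.71-fold rise with a 95% interval of 1.38 to 2.12 (edgeR adjusted p = 0.00165). It passed in all 13 alternatives, with log2 fold changes from 0.66 to 0.96, and was 0.74 without the chow library AGCTA.

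The other 9 members did not pass in monosomes. Selenop had 3083 (CTAGA), 3170 (GATCA) and 2927 (GCATA) CPM in HFHS monosomes, against 2525 (AGCTA), 2459.9 (ATCGT) and 2387 (CGTAA) CPM in chow monosomes. The groups did not overlap, and the log2 fold change of 0.28 ± 0.10 missed the threshold (edgeR adjusted p = 0.118). Selenos had 62 (CTAGA), 59.1 (GATCA) and 69 (GCATA) CPM in HFHS monosomes, against 96 (AGCTA), 68.7 (ATCGT) and 104.8 (CGTAA) CPM in chow monosomes, and the groups overlapped narrowly. Its log2 fold change was -0.52 ± 0.18 (edgeR adjusted p = 0.0946), and -0.69 without the chow library ATCGT, where it passed (edgeR adjusted p = 0.0235). Selenok averaged 44.1 ± 0.83 CPM in HFHS monosomes and 44 ± 17.7 CPM in chow monosomes (SD, n = 3 each), a log2 fold change of -0.0082 ± 0.24 (95% interval -0.49 to 0.48, edgeR adjusted p = 0.993). The remaining 6 members had log2 fold changes from -0.26 (Selenof) to 0.25 (Txnrd1), with edgeR adjusted p from 0.408 to 0.975. The median of the 10 members was 0.03, beside -0.02 over all genes tested.

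In disomes 8 of the 10 members passed the count filter, and Selenow and Selenot, with at most 13 counts in a library, did not. None of the 8 was called with edgeR, where 2.96% of 2804 genes tested were called, 1.82% higher and 1.14% lower. An unadjusted edgeR p below 0.05 was reached by 0 of the 8, beside 375 (13.4%) of all genes tested. DESeq2 gave an adjusted p for 5 of the 8 (Selenok, Selenop, Gpx1, Gpx4 and Selenos) and called 0 of these 5. The log2 fold changes ran from -0.47 (Txnrd1) to 0.51 (Dio1), with a median of -0.07 beside -0.03 over all genes tested, and the smallest edgeR adjusted p was 0.498. Dio1 had 79.6 (CTAGA) and 70.5 (GCATA) CPM in HFHS disomes, against 41.4 (AGCTA), 30.6 (ATCGT) and 70 (CGTAA) CPM in chow disomes. The groups were only just apart, with a log2 fold change of 0.51 ± 0.37 (edgeR adjusted p = 0.607). Selenok was lower in both HFHS disome libraries (266.6 and 274.2 CPM) than in the 3 chow ones (301.7 to 322.8 CPM), and its log2 fold change of -0.31 ± 0.22 did not pass (edgeR adjusted p = 0.591, 95% interval -0.73 to 0.11).

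**Figure D4:**
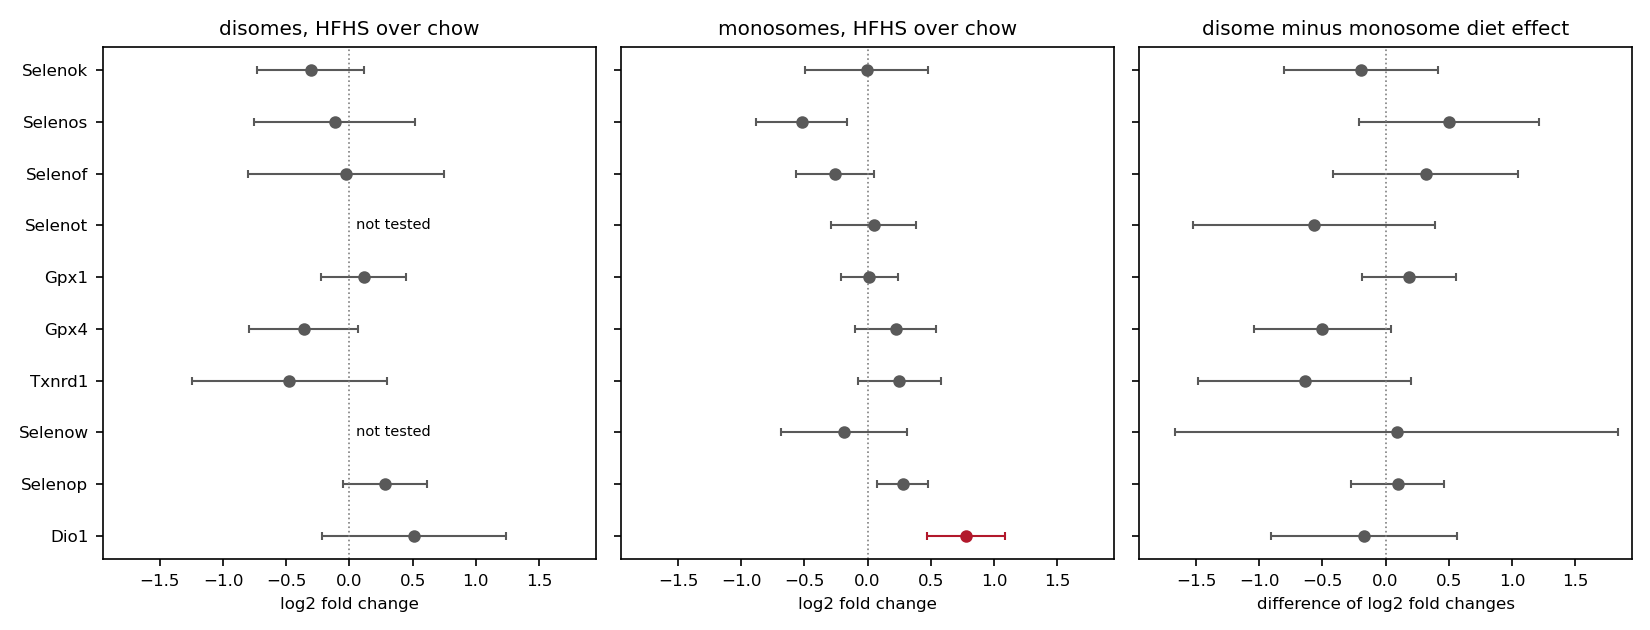
Log2 fold change of HFHS over chow in disomes (left) and monosomes (middle), and the difference of these diet effects, disome minus monosome (right), for each selenoprotein. Points are edgeR estimates, bars 95% intervals, and red marks an adjusted p below 0.05: Dio1 in monosomes, at 0.78, is the red point, and Selenot and Selenow were not tested in disomes.

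The third comparison tested, in 1 model over all 11 libraries, whether the disome-to-monosome ratio of a member differed between HFHS and chow. None of the 10 members was called with edgeR, 0 had an unadjusted p below 0.05, and DESeq2 called 0 of them. Of all 7236 genes tested 0% were called, with 358 at an unadjusted p below 0.05, and with the barcode as a block 7 were called lower, 0 of them a member. The differences of log2 fold changes ran from -0.64 (Txnrd1) to 0.50 (Selenos), with every edgeR adjusted p at 1. For Selenok the difference was -0.20 ± 0.30, and its 95% interval of -0.81 to 0.41 allowed a ratio in HFHS from 0.572 to 1.33 times that in chow. For Gpx4 it was -0.50 ± 0.27 (95% interval -1.04 to 0.04, unadjusted p = 0.0709). For Txnrd1 it was -0.64 ± 0.42 (interval -1.49 to 0.20), and for Selenos 0.50 ± 0.36 (interval -0.21 to 1.22). Gpx4 and Txnrd1, called lower in disomes in HFHS and not in chow, were thus not shown to differ between the diets, nor was Selenow, called in chow and not in HFHS. The intervals were narrowest for Selenop (0.09, from -0.28 to 0.46) and Gpx1 (0.18, from -0.19 to 0.56), the most deeply counted members, and widest for Selenow (0.09, from -1.67 to 1.84), whose difference was -1.21 without the HFHS disome library CTAGA and 0.72 without GCATA.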

How the data were processed

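The authors deposited 1 table of raw counts of footprints per gene on coding sequences, whole numbers that were not normalized. Per the labels' protocols, 200 mg of liver and 10 µg of RNA were used, and adaptors carried a sample barcode and an 8 nt molecular identifier. Per the submitters' processing notes, cutadapt 3.5 and Bowtie2 were used. Build, annotation, counter and use of the identifiers are not given there.

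After filterByExpr (minimum count 10) and TMM scaling, edgeR 4.0.16 (R 4.3.3) ran its robust two-sided quasi-likelihood F-test, with Benjamini-Hochberg adjustment across every gene tested. The SE is the log2 fold change divided by the square root of F. DESeq2 1.42.0 was an alternative. CPM were scaled by TMM over all 11 libraries, whereas ratios come from each comparison's own fit, so the 2 differ slightly. In a single library 3 counts correspond to 9.14 to 17.7 CPM in disomes and 2.09 to 4.00 CPM in monosomes, which covers counting error only. The rule for named genes was all 10 members. The members, lists and tests were chosen with earlier results of these data known. The fits were also run on simulated counts, drawn independently for each library, so libraries of 1 barcode were not linked there. No result given here rests on that run.

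The replicate numbers of the labels are not in the column names, so pairing was checked by barcode. Deviations from the group mean of the monosome and disome library of 1 barcode correlated at r = 0.69, 0.86 and 0.68 in chow and at 0.085 and 0.29 in HFHS. With another barcode of the same diet the highest correlations were 0.53 (ATCGT), -0.69 (AGCTA) and 0.55 (CGTAA) in chow, so the pairing of ATCGT and CGTAA is not sharply set apart. Deviations within a group cancel out and AGCTA stood apart, so the chow values cannot settle the pairing. In HFHS, with 2 disome libraries, the deviations are mirror images. The other barcode there gave -0.085 (CTAGA) and -0.29 (GCATA) by construction. Nothing in the labels links barcodes with animals.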

Additional observations from a re-analysis of the deposited data

How the results depend on the processing

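Across the alternatives, 659 of 675 recomputed values of single selenoproteins kept their direction and side of the threshold, or were uncalled in both settings. Of the rest 13 lost a call and 3 gained one, and no called value changed sign. Members that an alternative did not test, or gave no adjusted p for, are not among the 675. Calls lost in that way are therefore not counted, as for Selenow, Dio1 and Selenot in chow with a minimum count of 50. The same holds for Selenow in chow when any single chow monosome library was left out. The number of members lower in disomes in chow was 3 with a minimum count of 50, under which 5 of the 10 were tested, and 5 to 7 when single libraries were left out. Selenow was untested or not called in each leave-out fit that gave 5. In HFHS, library totals without TMM gave 2 members higher in disomes, and leaving out single libraries gave 5 to 7 lower. In monosomes, 0 to 1 member was lower in HFHS than in chow when single libraries were left out, the 1 being Selenos without the chow library ATCGT. With 1 HFHS disome library left, that library is assumed to vary like the other groups. The barcode as a replicate block changed no call of a member: 1 was higher and 6 lower in disomes in chow (Selenok 3.03), 1 and 7 in HFHS (Selenok 2.73), and none differed between the diets. No paired analysis was possible because HFHS and chow libraries share no barcode within a footprint class, for the diet comparisons.

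Counts over all genes moved more. In chow 1017 genes were higher and 1097 lower in disomes, with 412 to 1185 and 486 to 1532 over the alternatives, and library totals alone turned the balance to 1185 higher and 960 lower. In HFHS these were 854 and 1010, with 425 to 1043 and 555 to 1218, and library totals alone turned the balance to 1043 higher and 823 lower. For the diet they were 204 and 110 in monosomes, with 85 to 264 and 56 to 146, and 51 and 32 in disomes, with 16 to 52 and 10 to 33. For the difference between the diets in the disome-to-monosome ratio 0 genes were called, and 0 higher and 7 lower with the barcode as a replicate block. Without the count filter the median ratio of all genes shifted by -0.14 in HFHS and by -0.17 in chow. Disome depth limits Selenow and Selenot most.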
